A study of Mus musculus with 6 samples.

Results

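The DNA methylation of 10 genes that set the pace of cell division or hold it back was described in cultured spermatogonia: *Cdkn2a*, *Cdkn2b*, *Cdkn1a*, *Cdkn1b*, *Rb1*, *Ccnd1*, *Ccnd2*, *Ccnd3*, *Myc*, and *Mycn*. The sites of a gene were the CpG sites for which the deposited table named it as the closest, at any distance from its transcription start site (TSS), if each of the 6 samples had 10 or more reads there. Of 681804 sites with this depth in the table, 504 belonged to the 10 genes, with 267 within 1000 bp of the TSS (promoter sites) and 237 farther away (distant sites). This rule names the genes and uses no level. The samples were GS cells, which are cultured spermatogonia that include the stem cells of the male germline, from a mouse line with the genotype DBA/Tg14(act-EGFP-OsbY01), in which a transgene expresses the green fluorescent protein EGFP. Both groups carried this transgene and had been frozen for 6 months, the Space GS cells (3 replicates) aboard the ISS and the Ground GS cells (3 replicates) on Earth. By the paper, the cells for the methylation assay were cultured and passaged after thawing. The levels are therefore not those of cells taken directly from storage. Replicates are written as Space 1 to Space 3 and Ground 1 to Ground 3, and values are given in that order. The submitters describe the replicates as biological, but the sources used here do not say whether they were separate cultures, so the p-values measure only the spread between these samples.

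Division begins when D-type cyclins switch on the kinases CDK4 and CDK6, which phosphorylate the retinoblastoma protein and release E2F factors. The INK4 and CIP/KIP inhibitors oppose these kinases, and a lasting rise of INK4 proteins is a classical feature of senescence, while MYC factors drive the opposite program. CpG-rich promoters of such genes are mostly unmethylated in normal cells, and the methylation of the *Cdkn2a* and *Cdkn2b* promoters is well known from tumors and from long culture.

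Methylation was read by reduced representation bisulfite sequencing (RRBS), which sequences CpG-rich fragments after bisulfite has converted the unmethylated cytosines. The methylation level is the percent of reads of a site, or of the summed reads of several sites, that were methylated. The reads summed over all sites ranged from 28535973 to 33743845 per sample, and the median depth of the 504 sites was 26 to 33 reads. The mean level over all common sites was 19.7% to 20.3%. As a check of the labelled cell type, the promoters of 6 germline genes that somatic cells commonly methylate (*Dazl*, *Ddx4*, *Mael*, *Sycp3*, *Hormad1*, and *Tdrd1*) had group means from 0.239% to 4.35%. Of these, 4 were below 5% in all 6 samples, as were 77.8% of all promoters with at least 3 sites. No somatic sample was available for comparison. The cultures were kept on fibroblast feeder cells, whose share of the DNA was not tested. *Tex101* and *Stk31* had no promoter site of the needed depth.

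The promoter sequences show how dense the measured CpG sites were at the inhibitor genes. The 4 below are from RefSeq (GRCm38.p6) and end at the base before a TSS, 5′ to 3′ on the strand of the gene. CpG sites measured to the depth given above are in capitals. The table lists mm39 positions, and its sites were placed on these sequences by the pattern of CG positions alone, which put 39 of 39, 10 of 10, 4 of 4, and 22 of 22 table sites of the 300 bases around each TSS on a CG. The windows are chr4:89294620-89294869 (minus strand, upstream TSS of *Cdkn2a*), chr4:89311033-89311282 (minus strand, *Cdkn2b*), chr17:29093519-29093768 (plus strand, downstream TSS of *Cdkn1a*), and chr6:134920151-134920400 (plus strand, *Cdkn1b*).
Cdkn2a: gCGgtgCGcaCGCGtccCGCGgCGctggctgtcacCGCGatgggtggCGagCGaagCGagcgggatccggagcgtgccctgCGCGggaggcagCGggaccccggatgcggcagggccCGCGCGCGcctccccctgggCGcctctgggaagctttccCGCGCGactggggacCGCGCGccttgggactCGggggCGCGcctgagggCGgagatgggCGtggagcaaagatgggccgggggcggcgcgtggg
Cdkn2b: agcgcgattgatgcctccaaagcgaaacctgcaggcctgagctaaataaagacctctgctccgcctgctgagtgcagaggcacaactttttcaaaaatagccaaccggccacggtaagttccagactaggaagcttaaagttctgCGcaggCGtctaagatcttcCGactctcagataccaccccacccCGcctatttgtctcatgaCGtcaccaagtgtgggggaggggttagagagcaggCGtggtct
Cdkn1a: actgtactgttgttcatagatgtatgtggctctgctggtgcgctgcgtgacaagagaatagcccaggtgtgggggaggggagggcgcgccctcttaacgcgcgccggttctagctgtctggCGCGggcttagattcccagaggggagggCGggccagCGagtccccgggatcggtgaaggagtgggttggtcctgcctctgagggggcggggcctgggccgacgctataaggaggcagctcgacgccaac
Cdkn1b: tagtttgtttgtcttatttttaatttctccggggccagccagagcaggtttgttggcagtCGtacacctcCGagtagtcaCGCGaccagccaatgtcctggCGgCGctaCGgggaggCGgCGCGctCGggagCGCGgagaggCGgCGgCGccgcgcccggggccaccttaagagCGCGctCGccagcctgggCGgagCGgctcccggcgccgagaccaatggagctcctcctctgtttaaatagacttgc
The *Cdkn2a* window was the densest, with 45 CG in 300 bases, a number that 1.93% of 32851 RefSeq promoter windows reach. The *Cdkn1b* window held 30 CG (11.7% of windows hold as many), the *Cdkn1a* window 23 (21.5%), and the *Cdkn2b* window 18 (29.7%). The sites of the 300 bases with this depth numbered 31 in the *Cdkn2a* window, 16 of them listed under *Cdkn2a* and 15 under the predicted gene *Gm12610*, with levels of 0.608% ± 0.429 and 1.58% ± 1.40 in Space and Ground GS cells (SD, n = 3), and 9 for *Cdkn2b*, with 0.816% ± 0.607 and 2.17% ± 3.46. They numbered 4 for *Cdkn1a*, with 1.42% ± 2.09 and 2.67% ± 3.42, and 21 for *Cdkn1b*, with 2.29% ± 2.67 and 1.91% ± 1.03. The letters in capitals were thus nearly all read as unmethylated in both groups. RefSeq windows were found for 6 of the 10 genes (*Cdkn2a*, *Cdkn2b*, *Cdkn1a*, *Cdkn1b*, *Ccnd3*, and *Mycn*).

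The promoters of the family were close to unmethylated, and methylation appeared several kilobases away. Of the 504 sites, 447 had a mean level below 5%, 20 had one above 95%, and 37 lay between. The mean site level within 1000 bp of the TSS was 2.04% ± 0.279 for Space and 1.69% ± 0.0792 for Ground GS cells (SD, n = 3), and from there to 5000 bp it was 5.20% ± 0.679 and 4.59% ± 0.571. It reached 67.6% ± 1.98 and 67.5% ± 1.29 from 5000 to 50000 bp, and 81.2% ± 0.975 and 81.8% ± 3.34 beyond 50000 bp. The zone beyond 50000 bp held only 8 sites of 2 genes, *Cdkn2b* and *Myc*. Over all genes of the table the means of these zones were 2.46%, 20.7%, 49.1%, and 61.0%. The mean of the 193 sites of the family in the second zone was therefore below that of all sites there, and the means of the outer zones were above it. Single sites went the other way. In the second zone 2 sites exceeded 95%, and from 5000 to 50000 bp 8 of 36 sites were below 5%. The second zone includes a block of 70 *Cdkn1a* sites, 42 of them within 1000 bp of a further RefSeq TSS of that gene. These zone values are descriptions, since 1 gene can fill a zone.

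**Figure D1:**
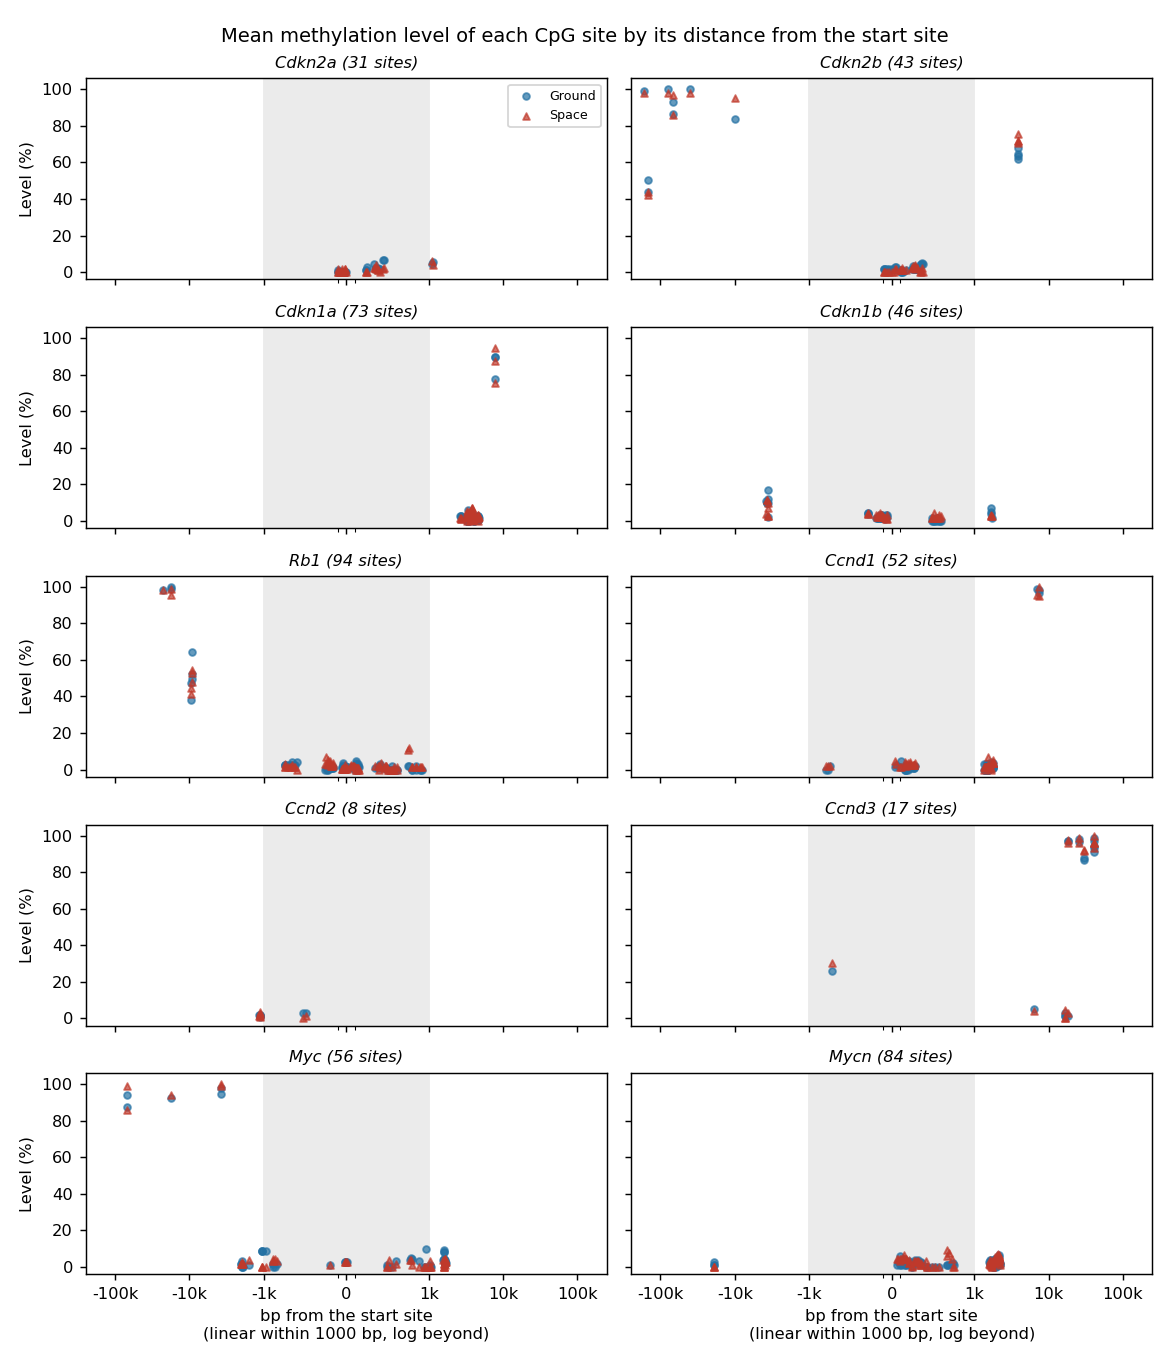
Mean methylation level (percent) of each of the 504 CpG sites against its distance from the start site of its gene (bp, linear within 1000 bp and logarithmic beyond, negative values upstream), 1 panel per gene. Circles are means of 3 Ground replicates, triangles means of 3 Space replicates, and the grey band marks promoter sites. Sites in the band lie near 0% except the single *Ccnd3* site, and most sites beyond 5000 bp are above 50%.

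The placing by CG pattern also showed which part of each gene the sites lie in. It put all common sites of 9 genes and 35 of the 43 of *Cdkn2b* on a CG of GRCm38.p6. By curated RefSeq transcripts, 139 of the 504 sites were upstream of the gene, 68 in untranslated parts of exons, 82 in coding exons, and 207 in introns, and the 8 *Cdkn2b* sites from 9993 bp upstream outward were not placed. Low levels were not limited to upstream sequence. In coding exons 72 of 82 sites had a mean below 5%, in introns 191 of 207, and in untranslated exons 65 of 68. Of these low sites, 39 in coding exons belong to 1 *Mycn* block and 70 in introns to 1 *Cdkn1a* block. The distant coding exon sites of *Cdkn2b* and *Cdkn1a* were high, with means from 66.4% to 92.1%.

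Among the INK4 inhibitors, *Cdkn2a*, which encodes p16Ink4a and, from another first exon, the Mdm2 inhibitor p19Arf, was measured at the upstream TSS, which gives p19Arf. The 29 promoter sites had levels of 0.749%, 1.86%, and 0.426% in the Space replicates, against 1.47%, 0.392%, and 2.62% in the Ground replicates. The ranges overlapped, and no replicate exceeded 3%. The difference of Space minus Ground was -0.483 ± 0.775 percentage points (SE), with an adjusted p of 0.978. The first 16 of these sites, at 1 to 99 bp upstream of the TSS, averaged 0.463% ± 0.530 and 0.0720% ± 0.125. The only distant sites were 2 in the intron that follows, at 1096 and 1122 bp, with group means of 5.34% ± 3.49 and 4.98% ± 4.40, too few sites for the test.

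The table assigns most sites upstream of this *Cdkn2a* TSS to *Gm12610*. With all 105 sites within 1000 bp of the TSS, 76 of them listed under *Gm12610*, the levels were 1.97% ± 0.380 in Space GS cells against 2.39% ± 0.483 in Ground GS cells, an alternative that was chosen after the data had been seen.

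*Cdkn2b*, which encodes p15Ink4b and lies beside *Cdkn2a* on chromosome 4, had 31 promoter sites that reach from 98 bp upstream to 378 bp downstream of the TSS and cover the first exon. Their levels were 1.53%, 2.58%, and 0.880% in Space GS cells against 4.32%, 1.72%, and 0.798% in Ground GS cells. The replicate with the highest level was Ground 1, and the groups overlapped (difference -0.617 ± 1.17, adjusted p = 0.988). The 12 distant sites of *Cdkn2b* had the highest distant level of the family. The levels were 74.0%, 77.1%, and 70.1% in Space GS cells against 80.7%, 69.6%, and 66.1% in Ground GS cells, again with overlap (difference 1.61 ± 4.86, adjusted p = 0.990). Of these, 4 lay in a coding exon at chr4:89307130-89307159 of GRCm38.p6, 3879 to 3908 bp downstream, with site means from 66.4% to 71.6%. The remaining 8 extended up to 169001 bp upstream, where 4 exceeded 95% and the pair at 145080 and 145099 bp stayed at 46.9% and 42.9%.

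Of the CIP/KIP inhibitors, *Cdkn1a* (p21, the main inhibitor induced by p53) had no promoter site by the TSS of the table. Its 73 sites lay 2665 to 7793 bp downstream. RefSeq has a further *Cdkn1a* TSS 2790 bp downstream of the first, so 42 of these distant sites were within 1000 bp of that TSS, and their highest site mean was 4.03%. The block of 70 sites from 2665 to 4660 bp had levels of 3.46%, 1.89%, and 2.38% in Space GS cells against 2.40%, 0.944%, and 1.76% in Ground GS cells. The next 3 sites, in a coding exon at 7756 to 7793 bp (chr17:29098731-29098768 of GRCm38.p6), were at 85.8% ± 6.34 and 85.6% ± 4.01. *Cdkn1a* thus went from unmethylated to methylated between 4660 and 7756 bp in both groups. Over all 73 sites the levels were 6.20%, 5.38%, and 6.10% in Space GS cells against 4.91%, 2.97%, and 5.93% in Ground GS cells. Ground 3 lay within the Space range, and the difference of 1.29 ± 0.907 had an unadjusted p of 0.0702 and an adjusted p of 0.915 in the quasi-binomial test with the dispersion moderated by limma.

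*Cdkn1b* (p27, which restrains CDK2 with cyclin E) had 35 promoter sites with levels of 3.79%, 0.802%, and 3.35% in Space GS cells against 2.00%, 1.31%, and 2.29% in Ground GS cells. Space 2 was below every Ground replicate and the other Space replicates were above them (difference 0.782 ± 0.976, adjusted p = 0.954). Its 11 distant sites stayed low as well, with 4.65%, 4.20%, and 4.53% in Space GS cells against 7.84%, 5.17%, and 6.69% in Ground GS cells. Here every Space replicate was below every Ground replicate, by 2.10 ± 0.786 percentage points, but the unadjusted p was 0.134 and the adjusted p 0.936 (limma-moderated test). With promoters of 500 bp, which adds sites to the distant set, the difference was only -0.394 percentage points. Of these sites, 7 were 3530 to 3748 bp upstream of the TSS (chr6:134916652-134916870 of GRCm38.p6), with group means of 7.09% ± 2.22 and 9.47% ± 0.151.

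*Rb1* encodes the retinoblastoma protein, the target of the kinases that these inhibitors block. It had the largest number of promoter sites, 86, and levels of 2.19%, 0.974%, and 2.17% in Space GS cells against 1.10%, 1.38%, and 1.35% in Ground GS cells. The Ground replicates lay between Space 2 and the other Space replicates (difference 0.501 ± 0.412, adjusted p = 0.934). The 8 distant sites were all upstream, with levels of 62.4%, 55.8%, and 67.7% against 62.3%, 61.5%, and 64.4%. They differed with distance. The 5 sites at 9266 to 9454 bp (chr14:73335087-73335275 of GRCm38.p6) had site means from 39.8% to 58.7%, and the 3 sites at 17780 to 23002 bp had site means from 96.9% to 99.5%.

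The D-type cyclins, which activate CDK4 and CDK6, differed among themselves in coverage. *Ccnd1* (cyclin D1) had 21 promoter sites with levels of 3.20%, 1.71%, and 2.80% in Space GS cells against 0.919%, 2.19%, and 0.455% in Ground GS cells. Ground 2 lay above Space 2, and the difference of 1.38 ± 0.683 gave the smallest unadjusted p of the tested promoters of the family, 0.129 (adjusted p = 0.932, limma-moderated test). Its 31 distant sites had levels of 13.4%, 8.55%, and 16.1% against 14.4%, 12.4%, and 12.5%. This value combined 28 intron sites at 1339 to 1799 bp (chr7:144938125-144938585 of GRCm38.p6), none with a mean above 4.37%, and 3 sites at 7083 to 7358 bp, 2 in an untranslated exon part and 1 in an intron, with means from 95.9% to 99.2%.

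*Ccnd2* (cyclin D2), which is known for its role in spermatogonia, had only 8 sites, all upstream. Its 2 promoter sites had levels of 0.962%, 1.03%, and 0% in Space GS cells against 7.41%, 1.35%, and 0% in Ground GS cells, and were not tested because of their number. They are promoter sites by the TSS of the table, but lie at -1632 and -1672 bp from the curated RefSeq start of *Ccnd2*. Its 6 distant sites at 1110 to 1141 bp (chr6:127153302-127153333 of GRCm38.p6) had 4.48%, 0%, and 1.08% against 1.48%, 2.21%, and 0.326% (difference 0.519 ± 1.46, adjusted p = 0.988).

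*Ccnd3* (cyclin D3) had 1 promoter site, 719 bp upstream, which was the most methylated promoter site of the family. Its level was 34.3%, 20%, and 36.2% in Space GS cells against 24.1%, 38.7%, and 15.2% in Ground GS cells, from 46 to 75 reads per sample, and the groups overlapped. The 16 distant sites were all in introns, at 6372 to 40868 bp, with levels of 65.0%, 65.3%, and 70.8% against 67.1%, 67.0%, and 61.6% (difference 1.78 ± 2.63, adjusted p = 0.990). Neighboring sites differed in their measured level in both groups. The sites at 18444 and 18517 bp had means of 96.4% and 97.2%, and the site between them, at 18454 bp, had a mean of 1.82%. Whether the cells carry another base than the reference at this site, which would also change the percent, was not tested.

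The MYC factors, which drive growth and the entry into DNA synthesis, had low levels near the TSS. *Myc* had 23 promoter sites with levels of 1.79%, 2.21%, and 2.41% in Space GS cells against 1.91%, 2.93%, and 2.13% in Ground GS cells, and 33 distant sites with levels of 17.6%, 14.9%, and 19.98% against 18.2%, 19.96%, and 16.3%. Both pairs of groups overlapped (differences -0.186 ± 0.360 and -0.686 ± 1.80, adjusted p = 0.995 and 0.994). Of the distant sites, 28 lay within 2003 bp of the TSS and had means below 5%, and the 5 sites from 3707 to 70113 bp upstream had means from 86.6% to 98.9%.

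*Mycn*, the MYC factor that is active in many stem and progenitor cells, had 39 promoter sites with levels of 3.15%, 3.22%, and 1.09% in Space GS cells against 1.84%, 2.13%, and 2.34% in Ground GS cells (difference 0.386 ± 0.715, adjusted p = 0.989). Its 45 distant sites had levels of 2.99%, 3.76%, and 3.53% in Space GS cells against 2.55%, 2.08%, and 2.00% in Ground GS cells. Every Space replicate was above every Ground replicate, by 1.21 ± 0.285 percentage points. The unadjusted p was 0.00701, rank 123 among 17152 genes, and the adjusted p was 0.897 (limma-moderated test). Of these sites, 42 formed a block at 1577 to 2238 bp, all of them in a coding exon (chr12:12939675-12940336 of GRCm38.p6), with levels of 3.11%, 3.86%, and 3.64% against 2.44%, 2.13%, and 2.07%. In this block the Space mean was higher at 30 sites and lower at 12, but neighboring sites share reads and are not independent. The other 3 sites, 19163 to 19267 bp upstream, were at 0% in 5 samples and at 5.26% in Ground 1.

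**Figure D2:**
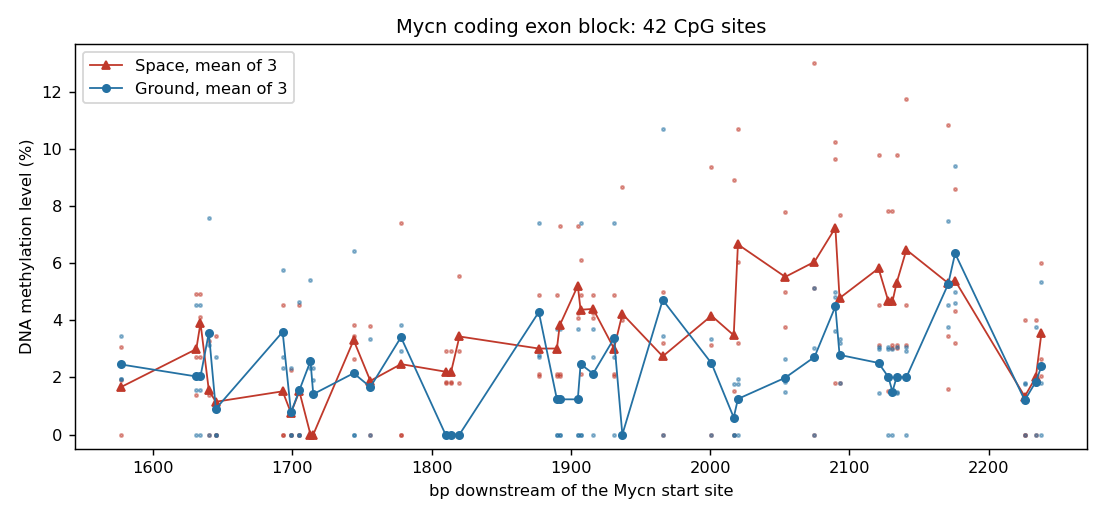
Methylation level (percent) of the 42 CpG sites of *Mycn* at 1577 to 2238 bp downstream of the start site (x axis, bp). Small points are the 6 samples and the lines join the means of 3 Space (triangles) and 3 Ground (circles) replicates. The Space mean is above the Ground mean at 30 sites, and single samples reach at most 13.04%.

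**Figure D3:**
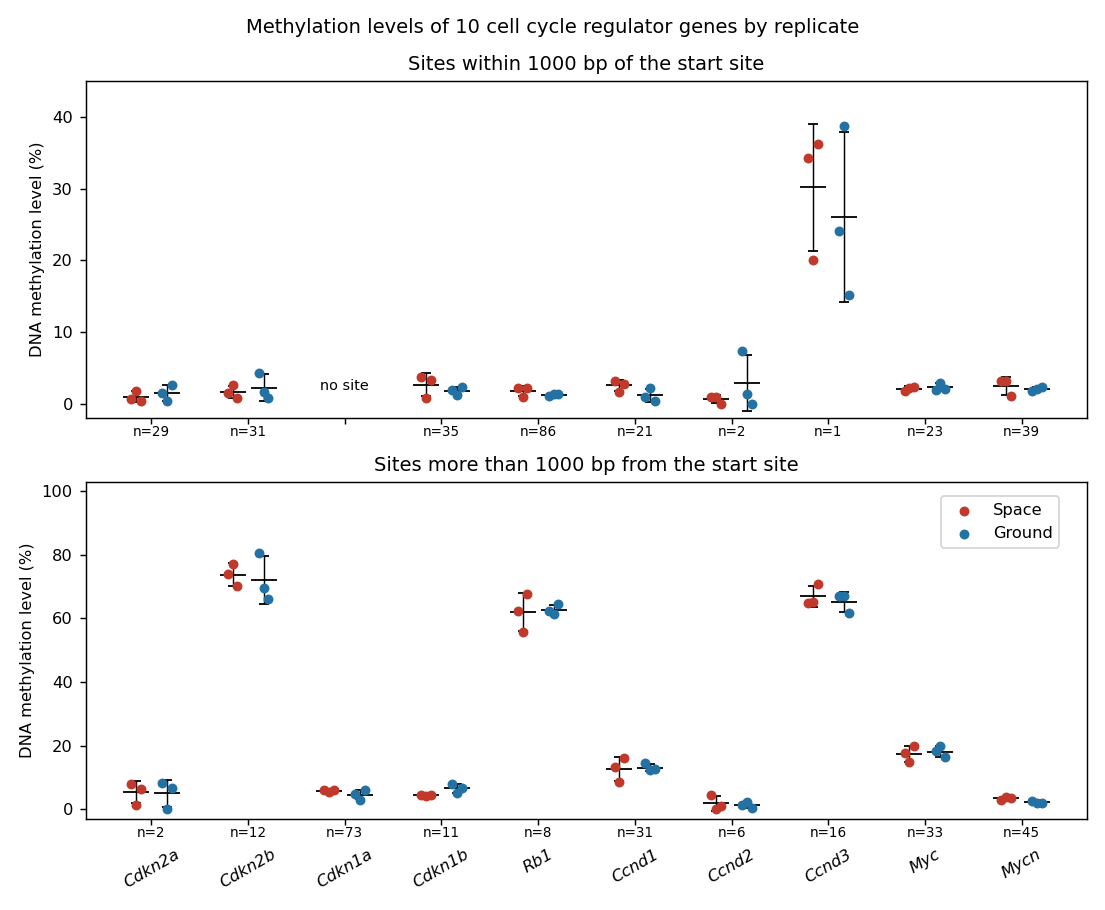
Methylation level (percent) of the 10 genes in each replicate, from the reads summed over promoter sites (upper panel) and distant sites (lower panel). Points are replicates, bars are means with SD over 3 replicates, and n is the number of CpG sites. Promoter levels stay under 8% except for the single *Ccnd3* site, and distant levels range from 0% to 80.7%.

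Distant and promoter sites were then compared within each sample. For the 6 genes with at least 3 sites of both kinds, the distant level exceeded the promoter level by 71.0 ± 1.57 percentage points (SE) for *Cdkn2b*, 60.8 ± 1.39 for *Rb1*, 15.6 ± 0.901 for *Myc*, 11.02 ± 1.03 for *Ccnd1*, and 3.26 ± 0.740 for *Cdkn1b*. These 5 passed the limma test with adjusted p-values of 3.52e-09, 4.36e-09, 1.29e-06, 2.47e-05, and 0.00408, as did 87.5% of the 8422 genes tested in this direction. The *Cdkn1b* step no longer passed with a minimum of 20 reads (0.910 points) or with promoters of 500 bp (1.52 points). *Mycn* did not pass, with a step of 0.524 ± 0.711 and an adjusted p of 0.507. The median step of the 6 genes was 13.3 points and that of all genes tested was 55.2 points. With this limit of 1000 bp the order of the family was *Cdkn2b*, *Rb1*, *Myc*, *Ccnd1*, *Cdkn1b*, and *Mycn*, and the steps of the last pair were 3.26 and 0.524. The sizes of the steps depended on the limit. With promoters of 2000 bp the steps of *Ccnd1* (96.0 points) and *Myc* (82.4) exceeded those of *Cdkn2b* (71.0) and *Rb1* (60.8). With promoters of 500 bp the *Rb1* step was 18.0 points, and that of *Cdkn2b* stayed at 71.0.

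The step did not pass the test for a difference between Space and Ground GS cells in any of the 6 genes. For *Cdkn1b* it was 0.866, 3.40, and 1.18 points in Space GS cells against 5.84, 3.86, and 4.40 in Ground GS cells. The groups of 3 did not overlap for this gene, 1 of the 6, as for 9.94% of the 8422 genes. The difference of -2.89 ± 1.48 points had an unadjusted p of 0.0944, the smallest of the 6, and an adjusted p of 0.968 (limma). Of all genes 0% passed at the adjusted threshold of 0.05 and 4.81% had an unadjusted p under 0.05, against 0 of the 6. For the other 5 genes the differences were between -1.86 (*Ccnd1*) and 2.22 points (*Cdkn2b*).

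**Figure D4:**
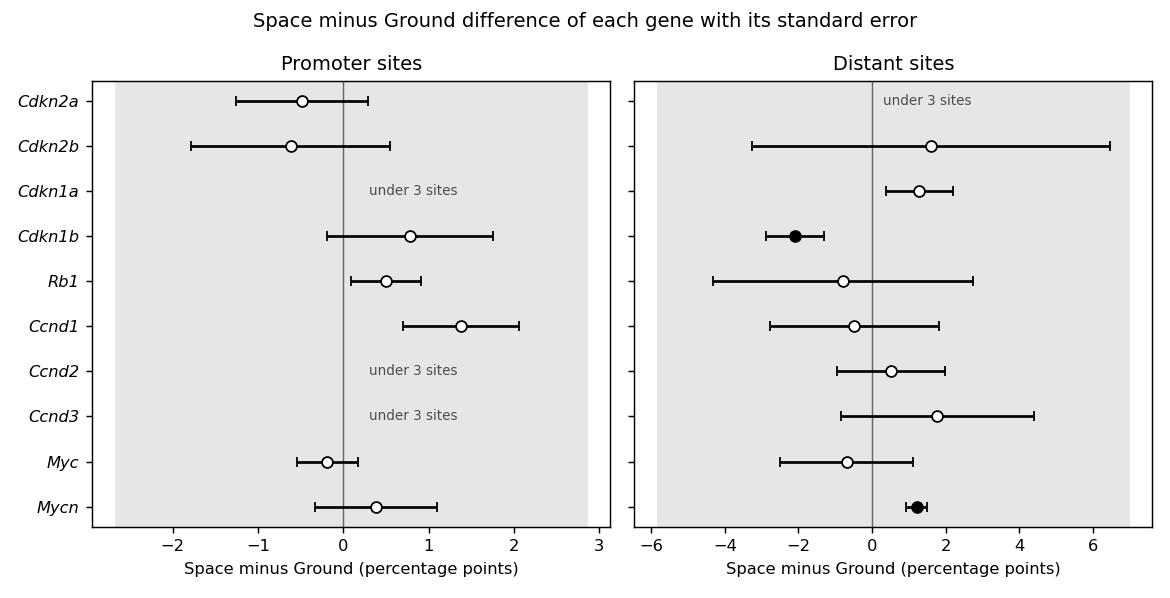
Difference of the group means, Space minus Ground (x axis, percentage points), at promoter sites (left) and distant sites (right) of each gene with at least 3 sites. Bars are standard errors, filled points mark groups of 3 that do not overlap, and the grey band holds the middle 95% of all genes. *Cdkn1b* and *Mycn* at distant sites are the filled points, and all points lie within the band.

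Between Space and Ground GS cells, 0 of the 7 tested promoters of the family and 0 of the 9 tested distant sets passed an adjusted p of 0.05 in the quasi-binomial test, and neither did any other gene (0% of 14203 promoters and 0% of 17152 distant sets). The edgeR and limma alternatives also called 0. At an unadjusted p under 0.05 there were 0 of 7 promoters (5.36% of all) and 1 of 9 distant sets, *Mycn* (5.49% of all). Groups did not overlap at 0 of 7 promoters (9.64% of all) and at 2 of 9 distant sets, *Mycn* and *Cdkn1b* (9.76% of all). The Space mean was the higher at 4 of 7 promoters (54.3% of all) and 5 of 9 distant sets (54.9% of all). The median difference was 0.386 percentage points over the 7 promoters and 0.519 over the 9 distant sets, against 0.0872 and 0.238 over all genes. All 6 samples were below 5% at 7 of the 9 promoters with a site, and at all 7 of those with at least 3 sites, as at 77.8% of all promoters with at least 3 sites.

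Smaller stretches were tested as regions of at least 3 sites with gaps of at most 100 bp. Of 34 regions of the family 32 could be tested, and 0 passed (0% of 49168 regions). An unadjusted p under 0.05 was found for 3 of the 32 (5.68% of all), the *Mycn* block described above and *Rb1* regions at 744 to 921 bp downstream and 162 to 253 bp upstream. The upstream *Rb1* region, with 15 sites, was at 6.08%, 1.66%, and 1.35% against 1.82%, 0.228%, and 0%, and its groups overlapped. The groups did not overlap in 3 of the 32 (9.33% of all), the *Mycn* block, the downstream *Rb1* region, and the upstream *Cdkn1b* region. No region of the family differed by more than 20 points (0.0656% of all did). The largest difference, 7.83 ± 5.82 points, was that of the 4 *Cdkn2b* sites in the coding exon, with 73.0%, 72.2%, and 70.8% in Space GS cells against 74.8%, 54.9%, and 62.8% in Ground GS cells. Ground 1 was above all Space replicates there (adjusted p = 0.903), and the difference was 13.2 points without Ground 1 and 3.21 without Ground 2. The next was the downstream *Rb1* region, with 9 intron sites (chr14:73324900-73325077 of GRCm38.p6), with 4.85%, 3.82%, and 6.25% against 0%, 0%, and 2.42%. All Space replicates were above all Ground replicates by 4.17 ± 1.07 points, with an unadjusted p of 0.0195 and an adjusted p of 0.859 (limma-moderated test). The third was a *Ccnd3* intron region of 3 sites at 40412 to 40445 bp (chr17:47545462-47545495 of GRCm38.p6), with 97.5%, 94.4%, and 97.3% against 93.1%, 95.6%, and 89.3% (difference 3.79 ± 2.06, adjusted p = 0.927).

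No single site of the family differed by more than 20 percentage points (0 of 504), a limit that 0.196% of all sites and 0.421% of sites beyond 1000 bp exceeded. The largest difference was -11.5 points at an *Rb1* site 9266 bp upstream, with 62.1%, 43.5%, and 53.3% in Space GS cells against 69.6%, 61.7%, and 62.2% in Ground GS cells. Space 1 lay within the Ground range, and the difference was -6.78 points without Space 2. The next, 11.4 points, was at a *Cdkn2b* site 9993 bp upstream, with 92%, 100%, and 94.4% against 85.7%, 88.2%, and 78.3%, and here the groups did not overlap. At depths of 18 to 34 reads, 1 read of that site is worth several points. The third was 9.95 points at an *Rb1* site 754 bp downstream, in the region described above, with 8.33%, 11.5%, and 15.4% against 0%, 0%, and 5.41%. Of the 37 sites with means of 5% to 95%, 0 passed the test (0% of 92042) and 3 had an unadjusted p under 0.05 (5.61% of all), the *Rb1* sites at 744 and 754 bp and a *Mycn* site at 666 bp. The groups did not overlap at 5 of the 37 (9.07% of all), these 3, the *Cdkn2b* site above, and a *Cdkn1b* site 3748 bp upstream. The *Rb1* sites at 744 and 754 bp had equal levels in every sample except Space 3, and such near sites can share reads. The other sites of their region were at 0% in Space 2, Space 3, Ground 1, and Ground 2. The region and these *Rb1* sites are therefore not separate observations.

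Of the other genes of the same pathways, 33 had a testable promoter and 24 testable distant sites, and 0 passed at an adjusted p of 0.05. At an unadjusted p under 0.05 there were 4 of 33 promoters (5.36% of all genes) and 2 of 24 distant sets (5.49% of all genes). The smallest promoter p-values were those of *Rbl2* (0.0371) and *Rbl1* (0.0460), both relatives of *Rb1*, and of *Mxi1* (0.0393), an antagonist of MYC (limma-moderated test). *Rbl2* was at 1.04%, 0%, and 0% in Space GS cells against 16.5%, 0%, and 0% in Ground GS cells, so Ground 1 alone set its mean. *Rbl1* was lower in every Space replicate, at 0.861% ± 0.535 against 2.24% ± 0.818. Groups did not overlap at 9.64% of all promoters, and among these 33 at 1 with Space lower and 1 with Space higher. *Mxi1* was at 2.30% ± 1.05 against 0.859% ± 0.562. At distant sites, small p-values were those of *Cdk4*, the partner of the D-type cyclins, with 11.7% ± 0.882 against 5.61% ± 3.69 (unadjusted p = 0.0240, limma-moderated test), and of *E2f3*, one of the E2F factors, with 1.04% ± 0.228 against 1.71% ± 0.386 (unadjusted p = 0.0511). In both distant sets the groups of 3 did not overlap, as in 9.76% of all distant sets, and the adjusted p-values were 0.897 and 0.904 (limma-moderated test). Among the 24 distant sets, groups did not overlap in 2 with Space higher and 1 with Space lower. The named genes were picked by their small p, so the lack of overlap is not separate evidence. The *Cdk4* set held only 4 sites, with 78 methylated reads in all samples together.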

How the data were processed

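GS cells were analyzed by RRBS in 3 Space and 3 Ground replicates, grouped by title. The table that the authors deposited gives, for every CpG site, the read coverage (a count), the percent of methylated reads, and the closest gene. The submitters' processing notes name mm39, Bismark 0.24.2, Trim Galore, and methylKit, without their settings. The table holds no molecular identifiers, and reads can include copies of 1 molecule. Base differences between the DBA background and the reference were not tested.

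Sites entered with a minimum of 10 reads in each of the 6 samples. Methylated reads, the product of both columns, were within 0.000266 of a whole read. Reads were summed per gene over promoter sites (at most 1000 bp from the TSS) or distant sites (at least 3 sites), per region, or per site with a mean level of 5% to 95%. Sums with fewer than 5 methylated or 5 unmethylated reads were not tested. The test was a quasi-binomial test with the dispersion moderated by squeezeVar of limma 3.58.1 (R 4.3.3), fitted over all genes, regions, or sites with Benjamini-Hochberg adjustment. Steps were tested with limma. The tests were run on simulated data with planted changes of at least 10 percentage points, which exceed the tested gene differences of the family. This check does not show whether changes as small as those reported here would be found. The alternatives were edgeR 4.0.16, limma on log2 ratios, other read minimums, promoter limits, site minimums, and gaps, equal site weights, pooled reads, a replicate block, sites of at most 1000 reads, and leaving out each replicate.

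Sites were placed on GRCm38.p6 by the offset per gene at which the most sites lie on a CG (samtools 1.23.1, Python 3.11.15). The second best offset put at most 24.1% of sites on a CG. All 10 genes are named, as are the 3 pathway genes with the smallest p of each kind and the 3 regions and 3 sites with the largest difference. Of the pathway genes, 1 result is not reported here. The *Mycn* region was chosen after its values were seen. The members and lists were chosen with earlier results of these data known.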

Additional observations from a re-analysis of the deposited data

How the results depend on the processing

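Of the Space minus Ground comparisons of the 10 genes, 0 passed an adjusted p of 0.05 under any alternative (387 values of single genes, regions, and sites, smallest adjusted p = 0.539, limma-moderated test). Signs were unstable. With a minimum of 5 reads *Cdkn2a* at promoters reversed to 0.608 percentage points. With a minimum of 20 reads the values were -0.202 (*Cdkn1b*, promoter), 0.344 (*Myc*, promoter), -0.281 (*Mycn*, promoter), 1.78 (*Ccnd1*, distant), and 0.100 (*Ccnd1*, step). With promoters of 500 bp *Rb1* reversed to 1.43 (distant) and 0.961 (step), and with 2000 bp *Myc* reversed to 3.46 (distant) and 3.996 (step). *Cdkn1b* kept its sign with promoters of 500 bp but shrank from -2.10 to -0.394 (distant) and from -2.89 to -0.761 (step). Leaving out each replicate in turn gave -1.03 to 0.0794 (*Cdkn2a*), -1.36 to 0.405 (*Cdkn2b*), and -0.395 to 0.118 (*Myc*) at promoters. At distant sites it gave -1.42 to 5.89 (*Cdkn2b*), -3.65 to 2.29 (*Rb1*), -2.18 to 1.58 (*Ccnd1*), -0.795 to 1.45 (*Ccnd2*), -0.110 to 2.79 (*Ccnd3*), and -1.94 to 0.607 (*Myc*), and for the step -0.0674 to 5.49 (*Cdkn2b*), -3.96 to 1.38 (*Rb1*), and -1.61 to 0.829 (*Myc*). *Mycn* at distant sites kept its sign, at 1.05 to 1.43. Other values kept their sign but moved by over 1.5 times, with these lowest and highest values: at promoters *Cdkn1b* (0.213 without Space 1, 1.70 without Space 2; also 0.429 without Space 3 and 0.502 without Ground 2), *Rb1* (0.294 without Space 1, 0.903 without Space 2; also 0.304 without Space 3), and *Mycn* (0.0191 without Space 2, 1.09 without Space 3; also 0.0539 without Space 1 and 0.253 without Ground 1), at distant sites *Cdkn1a* (0.473 without Ground 2, 1.95 without Ground 3), the step of *Ccnd1* (-3.45 without Space 3, -0.233 without Space 2; also -1.07 without Ground 1) and *Mycn* (0.0758 without Space 3, 1.38 without Space 1), and the *Ccnd3* region (2.13 without Ground 3, 5.24 without Ground 2). The cause was not tested.

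The genes with a higher distant level numbered 3845 of 4793 with a minimum of 20 reads, against 7372 of 8422, with fewer genes tested, and the *Cdkn1b* step was then 0.910 and no longer passed, nor at 1.52 with promoters of 500 bp. The median distant level of the family moved from 12.9% to 16.8% (minimum of 20 reads), 64.2% (promoters of 2000 bp), and 9.21% (at least 1 site), with other genes and sites counted, and the median promoter level (1.97%) was 1.91% to 2.21% without 1 replicate (2.21% without Ground 3). With a minimum of 5 reads, 1 of 681 sites differed by more than 20 points, a *Ccnd3* site 41629 bp downstream, at 100% in the Space replicates and 88.9%, 75.0%, and 69.2% in Ground replicates, on 8 to 18 reads. The site test called 0 to 3 of all sites without 1 replicate, with 1 without Space 2, 3 without Space 3, and 3 without Ground 1. The deviations of same-numbered replicates had correlations near 0 (r = 0.0438, 0.0220, and 0.00988). The range over all pairs was -0.0367 to 0.0438, and the closest partner had the same number for replicates 1 and 2. The sample descriptions also give consecutive numbers to the Space and Ground replicates of the same number, and their meaning is not stated. A pairing of the replicates is therefore not excluded. With the replicate block 0 promoters and 0 distant sets were called (*Mycn*, distant, 1.21 percentage points with an unadjusted p of 0.0156, limma-moderated test). At 10 reads 1 read is worth 10 percentage points, so small differences at single sites were not detectable at this depth.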

Other observations

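The deposited table also holds sites of other *Cdkn2a* and *Ccnd3* starts that it lists under neighboring genes or at lower depth. The downstream *Cdkn2a* TSS, which gives p16Ink4a, lies 12427 bp from the upstream one in GRCm38.p6 (window chr4:89282143-89282442, minus strand). Its window of 300 bases has 12 CG, and the table has 6 sites there, listed under *Gm12606*, with 0 sites at 10 reads in all samples. Reads were summed over these 6 sites, so 1 read that covers several sites is counted at each of them. The number of separate reads can be much lower and was not determined. Of the summed reads, 0 of 18, 0 of 18, and 0 of 72 were methylated in Space replicates 1 to 3. In Ground replicates 1 to 3 the counts were 0 of 42, 13 of 64, and 3 of 66. Ground 2 and Ground 3 held all methylated counts, which can come from few reads. The share in Ground 2 was 20.3%, and the difference was not tested at this depth.

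The *Ccnd3* promoter at the TSS of the table had 10 sites at lower depth. Of the reads summed over these sites in the same way, 1 of 130 was methylated in Space GS cells and 4 of 240 in Ground GS cells. At the second RefSeq start of *Ccnd3*, 88416 bp downstream, the table lists 19 sites under *Bysl*. There 0 of 74 and 0 of 131 summed reads were methylated, and Space 1 had 0 reads. The single *Ccnd3* promoter site of the report, at 719 bp upstream, had group means of 30.2% and 26.01%.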
